A study of Mus musculus with 36 samples.

Results

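The 9 genes described here encode the histone variant H3.3, the chaperones that handle it, and the chromatin proteins MORC3 and SMCHD1. They are H3f3a, H3f3b, Hira, Atrx, Daxx, Asf1a, Asf1b, Morc3 and Smchd1. They were taken by name, by a rule that holds no measured value, from the 54842 genes of the count table. Earlier results of these data were known when the set was chosen. H3.3 is the form of histone H3 that cells place into chromatin outside DNA replication. ASF1 proteins carry H3-H4 dimers and hand them to other chaperones, the HIRA complex deposits H3.3 at active genes, and ATRX with DAXX deposits it at telomeres and at pericentric heterochromatin. In mouse cells pericentric heterochromatin is built on the major satellite repeats (MSR), which are the DNA targeted in this study.

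The data are total RNA-seq libraries from mouse embryonic fibroblasts (MEF), an adherent connective tissue cell. Both lines carried an MSR guide RNA and a doxycycline-inducible dead Cas9 (dCas9), and the MSR-dCas9-Activator line differed from the MSR-dCas9-Control line in that its dCas9 was fused to the VPR transcriptional activator. Both were made by PiggyBac integration and kept as mixed cultures under hygromycin, so each line is 1 culture history and not a set of clones. Each line was sampled uninduced, induced with 10 ng/ml doxycycline, and at 3, 6, 12 and 24 h in fresh medium after induction, with 3 libraries per line and stage and 36 in all. The induced Control cells had doxycycline for 24 h and the induced Activator cells for 6 h, so that line and length of exposure cannot be told apart at the induced stage or at any later one.

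The 2 H3.3 genes encode the same histone with different codons. This is shown first because it bears on how well coding reads of one gene can be told from the other. Annotated exons hold 3504 bases in H3f3a and 2976 in H3f3b, and only the coding bases were compared. The first 120 coding bases of each gene, read 5′ to 3′ from the GENCODE M21 transcripts on the minus strand of GRCm38, are given with the bases that differ between them in capitals.
H3f3a (chr1:180811807-180811926): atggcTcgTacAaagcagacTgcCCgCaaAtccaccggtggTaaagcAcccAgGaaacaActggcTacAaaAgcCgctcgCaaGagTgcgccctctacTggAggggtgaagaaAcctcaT
H3f3b (chr11:116023890-116024009): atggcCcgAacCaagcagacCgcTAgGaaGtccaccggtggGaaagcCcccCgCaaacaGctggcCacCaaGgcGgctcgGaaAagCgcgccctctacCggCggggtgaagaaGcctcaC
In this stretch 24 of the 120 bases differed. Over the 408 coding bases 95 differed (76.7% identity), all 83 differing codons were synonymous, and the longest run shared by both was 23 bases. The annotated copies H3f3a-ps1, H3f3a-ps2 and H3f3c each held between 0.142% and 0.313% of the H3f3a count.

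The other genes lie apart on GRCm38: Hira at chr16:18877037-18970309, Atrx at chrX:105797615-105929403, Daxx at chr17:33909414-33915590, Morc3 at chr16:93832121-93876073, Asf1a at chr10:53596757-53609225, Asf1b at chr8:83955507-83970197 and Smchd1 at chr17:71344489-71475343. H3f3a spans chr1:180800832-180813943 and H3f3b chr11:116021912-116027962. Annotated genes overlap the exons of 3 of them. Gm28539 shares 2778 exon bases with Hira on the same strand, Mcm9 shares 1748 with Asf1a on the opposite strand, and the lincRNA Gm17275 shares 638 with H3f3a on the opposite strand. The library kit kept strand but the strand setting of the counting is not given in the sources used here, so the values of Hira, Asf1a and H3f3a are given below with those of their partners.

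Gene counts per library ran from 27376846 to 57371803. The members' own counts ran from 325 for Asf1a in its lowest library to 29500 for H3f3b in its highest. MSR transcripts (GSAT_MM), the target, stood at 22.4 to 51.6 CPM (counts scaled to the total of gene counts in a library) in the 18 Control libraries, at 53.5 to 101 in the uninduced Activator libraries and at 2324 to 40072 in the other Activator libraries, so the labels of the lines held. All levels of genes below are CPM scaled by TMM effective library size, and a gene passes with a Benjamini-Hochberg adjusted p under 0.05 in edgeR's quasi-likelihood test over 28536 genes. Whether the libraries of the lines overlap is given as a description only, since the share of all genes without overlap is not given here.

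Levels between genes were compared per kilobase of annotated exon. In uninduced Control cells H3f3b was the most abundant at 164 ± 8.21 CPM per kb (SD, n = 3), against 29.7 ± 0.806 for H3f3a. Asf1b followed at 23.7 ± 1.33, then Morc3 at 13.1 ± 0.548. Smchd1 at 12.0 ± 0.285 and Daxx at 11.9 ± 0.677 overlapped in their replicates and could not be ordered. Atrx stood at 10.8 ± 0.246, Hira at 6.99 ± 0.143 and Asf1a, the lowest, at 5.07 ± 0.526. In Activator cells at 12 h H3f3b was still first at 163 ± 6.11, Asf1b stood at 8.72 ± 1.73 with replicates that overlapped those of Daxx and Morc3, and Asf1a was again last at 3.04 ± 0.444.

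**Figure D1:**
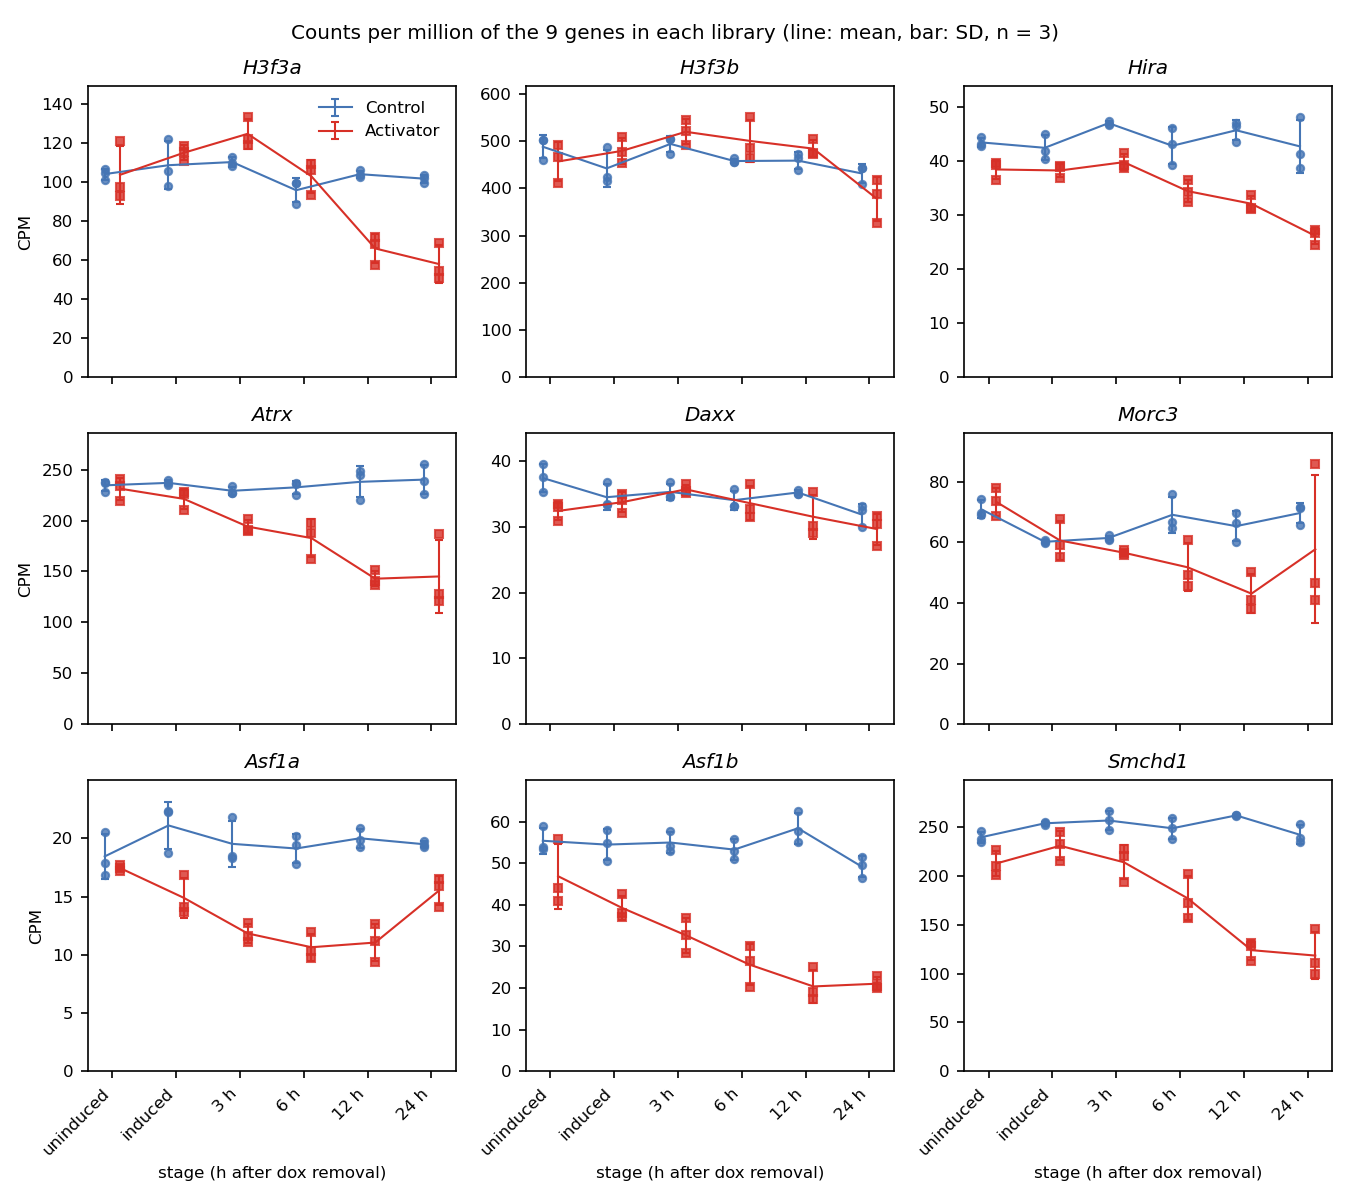
Level of each gene in CPM (vertical axis, from 0) at the 6 stages (horizontal axis) in the Control line (blue circles) and the Activator line (red squares), with 1 point per library, the mean as a line and the SD as a bar (n = 3). Asf1a and Asf1b are lower in the Activator line from the induced stage on, and the Activator means of H3f3a, Smchd1 and Atrx reach 66.0, 124 and 143 CPM at 12 h.

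The number of genes that differed between the lines grew over the time course. In the same interval the Activator cells lost viability. The paper reports that most of them were apoptotic or dead by the time of the last stage. It also reports a progressive fall of genes for DNA repair, cell cycle and mitosis in that line. The part of cell death in the levels of the 9 genes was not tested. At the uninduced stage 0 of the 9 passed, where 1.23% of all genes did (2963 genes had an unadjusted p under 0.05). At the induced stage 2 of 9 passed, Asf1a and Asf1b, both lower in the Activator line, where 25.5% of all genes were lower and 31.7% higher. At 3 h 5 of 9 were lower (all genes, 31.4% lower and 39.6% higher), and at 6 h 6 of 9 (33.3% lower, 40.8% higher). At 12 h 7 of 9 were lower (34.1% lower, 41.1% higher) and at 24 h again 7 of 9 (29.4% lower, 34.5% higher). None of the 9 passed as higher at any stage in this fit, whereas H3f3a, H3f3b and Daxx did so at some stages in some alternatives, as given with those genes. The median of the 9 log2 fold changes moved from -0.10 at the induced stage to -0.66 at 12 h and -0.71 at 24 h, beside medians over all genes of 0.10, 0.12 and 0.01. By the stricter rule of a 2-fold difference and a mean normalised count above 100, Asf1b passed at 6 h (10.3% of all genes lower by it), and Asf1b and Smchd1 passed at 12 h (10.9%) and 24 h (4.12%).

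**Figure D2:**
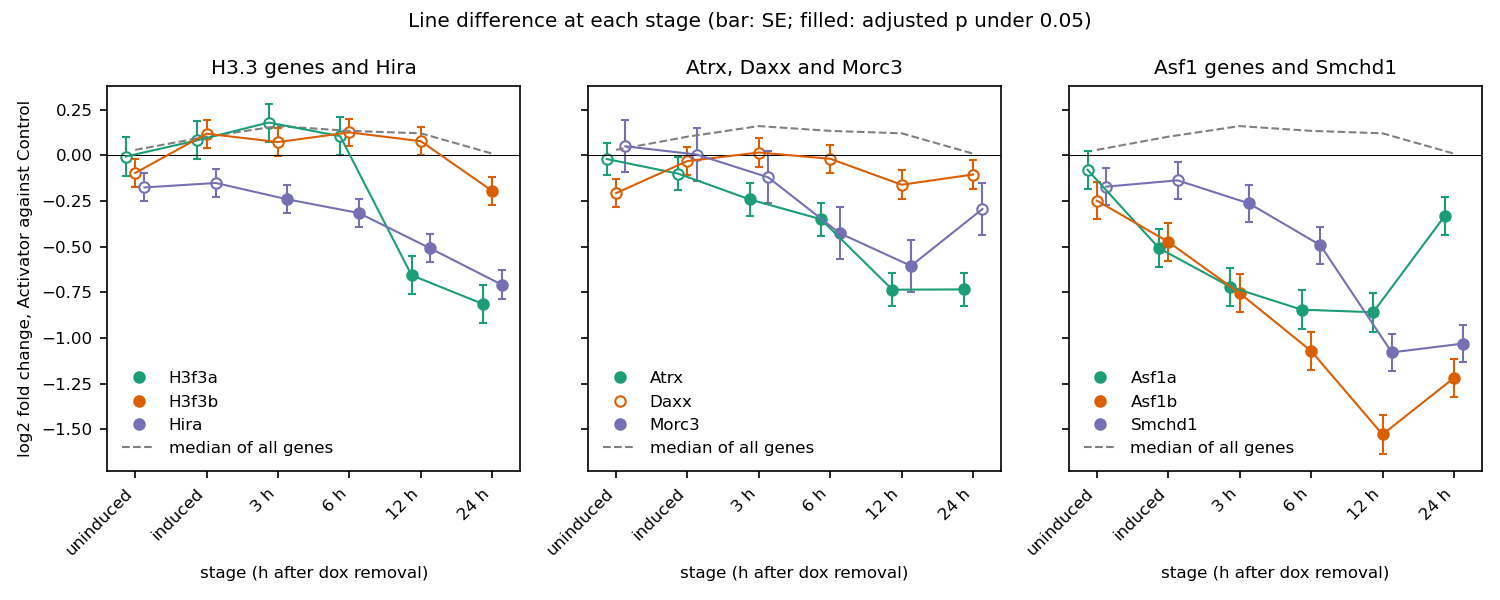
Log2 fold change of the Activator against the Control line (vertical axis) at each stage (horizontal axis), with the SE as a bar, filled points for an adjusted p under 0.05 and the median of all tested genes as a dashed line. Asf1a and Asf1b part from 0 at the induced stage and H3f3a only at 12 h, while Daxx has no filled point and H3f3b 1, at 24 h; under scaling to mitochondrially encoded mRNAs H3f3b lies at -0.53 at 12 h.

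The H3.3 genes parted from each other. H3f3a did not pass up to 6 h and was lower in the Activator line at 12 and 24 h, while H3f3b did not pass before 24 h. Scaling to mitochondrially encoded mRNAs, which lowered the median of all genes by 0.61 (log2) at 12 h, gave -1.29 for H3f3a and -0.53 for H3f3b there, so that H3f3b turned from 0.08 to lower under it, and at 3 h turned both to -0.43 and -0.53. The DESeq2 size factors went the other way and passed both genes as higher, H3f3a by 0.31 at 3 h (adjusted p = 0.0077) and 0.28 at 6 h (adjusted p = 0.015), and H3f3b by 0.21 at 3 h (adjusted p = 0.039), 0.30 at 6 h (adjusted p = 0.0035) and 0.29 at 12 h (adjusted p = 0.0052). DESeq2 itself and a filter at a mean above 100 also passed them as higher at these stages, so the direction of H3f3a up to 6 h and of H3f3b up to 12 h depends on the scaling. H3f3a measured 72.0, 57.6 and 68.5 CPM in the 3 Activator libraries at 12 h against 104, 106 and 103 in the Control libraries. At 24 h it measured 50.6, 68.9 and 54.5 against 102, 104 and 99.6. The Activator libraries were below every Control library at both times, and above every Control library at 3 h, when they held 119 to 133 CPM against 108 to 113. The log2 fold changes were 0.18 ± 0.10 (SE) at 3 h (adjusted p = 0.12), -0.66 ± 0.10 at 12 h (adjusted p = 2.4e-06) and -0.81 ± 0.11 at 24 h (adjusted p = 1.5e-07). The overlapping Gm17275 followed it, with -0.72 ± 0.11 at 12 h and -0.81 ± 0.11 at 24 h, and the share of either in the other's count was not tested.

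H3f3b measured 505, 475 and 473 CPM at 12 h in the Activator line against 465, 473 and 440 in the Control line. These values overlapped, with a log2 fold change of 0.08 ± 0.08 (adjusted p = 0.36). At 24 h the Activator libraries held 417, 328 and 388 CPM against 444, 442 and 409, which overlapped, with a log2 fold change of -0.20 ± 0.08 (adjusted p = 0.025). This call held in 3 of 17 alternatives and its sign turned in 2 of them, which were 0.029 among genes with a mean above 100 and 0.039 without replicate 2.

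Because both counts come from the same library, the share of H3f3a in the H3f3a and H3f3b counts needs no scaling between libraries. It was 18.5% ± 0.366 (SD, n = 3) in Control and 12.0% ± 1.01 in Activator cells at 12 h, after 17.3% ± 0.882 and 17.1% ± 0.761 at 6 h. At 24 h it was 19.1% ± 0.448 against 10.8, 17.4 and 12.3% in the 3 Activator libraries. The libraries of the lines did not overlap at 12 or 24 h. A two-sided exact permutation test of the log2 ratio gave a difference of -0.74 ± 0.084 (SE) at 12 h and -0.63 ± 0.24 at 24 h, each with p = 0.1, which is the smallest that 3 against 3 allows (adjusted p = 0.23 over 18 ratio tests). The sum of both genes was 563 ± 19.0 CPM in Control and 551 ± 23.7 in Activator cells at 12 h, and 534 ± 22.0 against 436 ± 36.2 at 24 h. The summed levels of the lines overlapped at 12 h, when the share did not, and were apart at 24 h. Unlike the share, the sum depends on the scaling. H3f3b, the larger part of it, differed at 12 h by -0.53 under the mitochondrial scaling and by 0.34 among genes with a mean above 100.

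**Figure D3:**
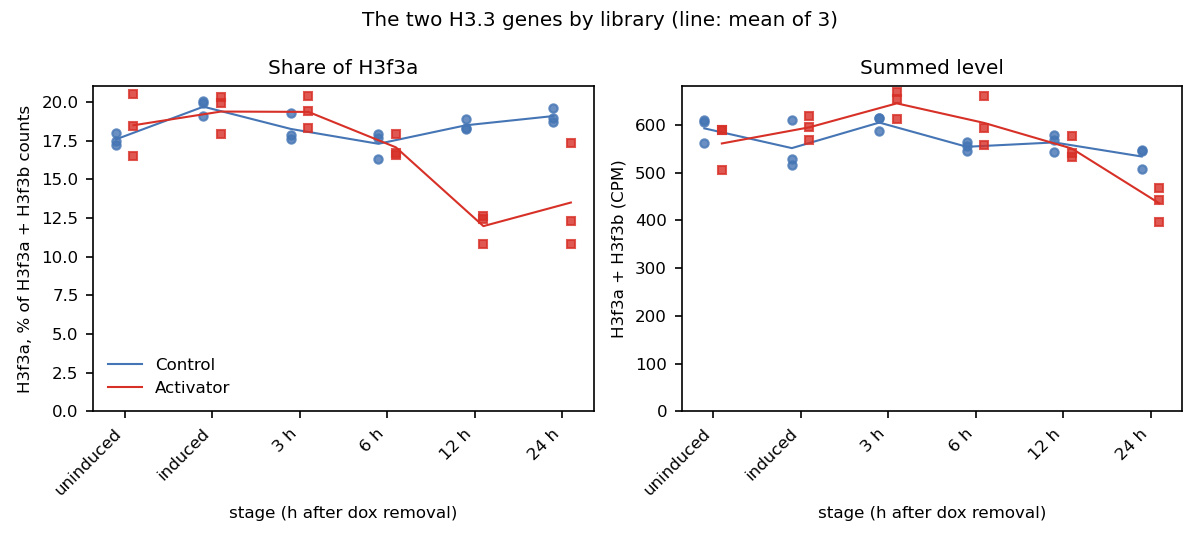
Left, share of H3f3a in the summed H3f3a and H3f3b counts (%); right, their summed level (CPM); both from 0, by stage, with 1 point per library and the mean of 3 as a line. The share in the Activator line is 10.8 to 12.6% at 12 h, below all Control libraries. The summed level, which unlike the share depends on the scaling, falls below the Control libraries only at 24 h.

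Hira encodes a subunit of the complex that deposits H3.3 at active genes. Its Activator libraries were below all Control libraries at every stage, the uninduced one included, where they held 39.6, 39.2 and 36.5 CPM against 44.5, 43.2 and 42.7 and the difference did not pass (adjusted p = 0.38). The gap widened to 33.8, 31.3 and 31.2 against 47.0, 43.6 and 46.6 at 12 h, and to 27.2, 24.5 and 26.7 against 41.2, 38.8 and 48.1 at 24 h. The log2 fold change was -0.51 ± 0.08 at 12 h (adjusted p = 1.0e-06) and -0.71 ± 0.08 at 24 h (adjusted p = 8.0e-09), and both held in 17 of 17 alternatives. The calls at 3 h (-0.24 ± 0.08) and 6 h (-0.32 ± 0.08) held in 10 and 11 of 17. Gm28539, annotated over part of the same exons, gave -0.50 ± 0.075 and -0.70 ± 0.075 at 12 and 24 h. Reads from the 2778 shared bases, of the 6215 exon bases of Hira, cannot be assigned to either gene by position.

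ATRX is a chromatin remodeller and DAXX the H3.3 chaperone that works with it, and in the comparisons by stage only Atrx passed. Atrx measured 141, 151 and 137 CPM in the Activator line at 12 h against 245, 249 and 221 in the Control line, with no overlap. The decline was gradual, from 210 to 228 CPM at the induced stage over 190 to 202 at 3 h and 162 to 198 at 6 h, each below all Control libraries of that stage. The log2 fold changes were -0.24 ± 0.09 at 3 h (adjusted p = 0.018), -0.35 ± 0.09 at 6 h (adjusted p = 0.0010), -0.74 ± 0.09 at 12 h (adjusted p = 3.0e-08) and -0.73 ± 0.09 at 24 h (adjusted p = 6.9e-08). The calls at 12 and 24 h held in 17 of 17 alternatives, those at 3 and 6 h in 8 and 13. At 24 h the Activator libraries spread from 121 and 127 to 187 CPM, and without replicate 2, the high one, the log2 fold change was -0.94.

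Daxx passed in none of the 6 comparisons by stage, although it passed as higher in 3 of 17 alternatives at 3 h and 2 of 17 at 6 h, and as lower at both under the mitochondrial scaling. It measured 30.2, 35.3 and 29.1 CPM at 12 h in the Activator line against 35.1, 35.02 and 35.7 in the Control line, a log2 fold change of -0.16 ± 0.08 (adjusted p = 0.062), and passed there only in 2 of 17 alternatives, one of them the mitochondrial scaling (-0.76). Its fitted differences ran from -0.21 ± 0.08 at the uninduced stage to 0.01 ± 0.08 at 3 h. The ratio of Daxx to Atrx counts within a library was 0.148 in Control and 0.220 in Activator cells at 12 h, and 0.133 against 0.208 at 24 h. The log2 difference was 0.57 ± 0.076 at 12 h and 0.65 ± 0.19 at 24 h, after 0.26 ± 0.039 at 3 h and 0.33 ± 0.083 at 6 h. At each of these stages the lines did not overlap. Each had the smallest exact permutation p the design allows, 0.1 (two-sided, adjusted p = 0.23). At induction the difference was 0.07 ± 0.052, with overlap. In the uninduced cells the ratio stood the other way, at 0.160 in Control and 0.140 in Activator cells (-0.19 ± 0.034), also without overlap.

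MORC3 is an ATPase found at PML nuclear bodies, the bodies at which DAXX also resides. Morc3 measured 38.0, 50.2 and 40.9 CPM in the Activator line at 12 h against 66.3, 69.6 and 59.96 in the Control line, without overlap, and its log2 fold change was -0.61 ± 0.14 (adjusted p = 0.00042), which held in 17 of 17 alternatives. At 6 h it was -0.43 ± 0.14 (adjusted p = 0.0091), a call kept in 8 of 17. At 24 h the Activator libraries held 40.8, 85.7 and 46.5 CPM against 71.7, 71.4 and 65.7, and the difference of -0.29 ± 0.14 did not pass (adjusted p = 0.073). One library decided this value, since without Activator replicate 2 it was -0.65 (adjusted p = 5.9e-06).

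In the main fit the ASF1 genes were the first to pass as lower in the Activator line, at induction. Under the mitochondrial scaling Atrx, Hira and Smchd1 passed as lower there too. Against the uninduced Activator cells only Asf1b passed at induction. The Control mean of Asf1a was 18.4 CPM when uninduced and 21.1 when induced. Asf1a, the form made in cycling and resting cells alike, measured 13.7, 16.8 and 14.1 CPM in induced Activator cells against 22.3, 18.8 and 22.2 in induced Control cells. It reached its lowest levels at 6 and 12 h, with 9.70, 11.9 and 10.3 CPM against 17.8, 19.4 and 20.2 at 6 h. By 24 h it stood at 14.1, 16.5 and 15.9 against 19.8, 19.3 and 19.4. The Activator libraries were below all Control libraries at each of these stages, and the gap at 24 h was the narrowest of the 5. The log2 fold change was -0.51 ± 0.11 at induction and -0.72 ± 0.11 at 3 h. It was -0.84 ± 0.11 (adjusted p = 6.0e-08) at 6 h and -0.86 ± 0.11 at 12 h, and these calls were kept in 17 of 17 alternatives. The value of -0.33 ± 0.11 at 24 h (adjusted p = 0.0071) was kept in 7 of 17. Mcm9, on the opposite strand over 1748 of the 3638 exon bases of Asf1a, moved less, by -0.31 ± 0.10 at 6 h and 0.02 ± 0.09 at 24 h.

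Asf1b is the form tied to proliferating cells. It was lower in the Activator line at each stage from induction on and showed the largest fitted line difference of the 9 at each later stage. It measured 42.6, 38.1 and 37.2 CPM in induced Activator cells against 58.0, 54.9 and 50.6. At 12 h it stood at 24.96, 17.3 and 19.0 against 62.5, 57.7 and 55.1, that is 34.9% of the Control mean. The log2 fold change was -0.47 ± 0.10 at induction (adjusted p = 0.00027) and -0.75 ± 0.10 at 3 h. Later it was -1.07 ± 0.10 at 6 h (adjusted p = 4.7e-10), -1.53 ± 0.11 at 12 h (adjusted p = 3.6e-13) and -1.22 ± 0.10 at 24 h (adjusted p = 9.6e-11), and all 5 were kept in 17 of 17 alternatives. At 24 h the level was 20.4, 22.8 and 19.99 CPM, within the range of 12 h, and the Control libraries held 46.5 to 51.5.

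The ratio of Asf1b to Asf1a counts was 2.92 in Control and 1.84 in Activator cells at 12 h, with overlapping libraries, and 2.52 against 1.36 at 24 h, without overlap. The log2 difference at 24 h was -0.89 ± 0.066 (two-sided exact permutation p = 0.1, adjusted p = 0.23). At each stage through 6 h the libraries of the lines overlapped in this ratio, with differences of -0.18 ± 0.16 when uninduced and from -0.23 ± 0.26 to 0.03 ± 0.17 between induction and 6 h.

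A list of 13 S-phase genes is given beside Asf1b because the gene is tied to replication. In this list 4 genes passed as higher and 1 as lower at induction, where 31.7% and 25.5% of all genes did. At 3 h 7 were higher and 2 lower (all genes, 39.6% and 31.4%). At 12 h 3 were higher and 6 lower (41.1% and 34.1%), and at 24 h none was higher and 9 were lower (34.5% and 29.4%). Its summed level was 1589 to 2675 CPM in the Activator line at 12 h against 2058 to 2142 in the Control line, and 1028 to 1726 against 1740 to 1883 at 24 h. The part of the cell cycle in its level was not tested.

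SMCHD1 is a non-canonical SMC protein known for silencing of the inactive X chromosome and of imprinted and clustered genes. Smchd1 did not pass at induction (-0.14 ± 0.10, adjusted p = 0.25) and was lower from 3 h on, with 202, 157 and 172 CPM in the Activator line at 6 h against 238, 249 and 259 in the Control line. At 12 h it measured 128, 131 and 113 against 261, 262 and 262, which is 47.3% of the Control mean, and at 24 h 99.3, 145 and 111 against 234, 239 and 253. The libraries of the lines did not overlap at any stage, the uninduced one included (201 to 226 against 235 to 246, adjusted p = 0.61). The log2 fold changes were -0.26 ± 0.10 at 3 h (adjusted p = 0.022), -0.49 ± 0.10 at 6 h (adjusted p = 9.3e-05), -1.08 ± 0.10 at 12 h (adjusted p = 2.1e-10) and -1.03 ± 0.10 at 24 h (adjusted p = 1.5e-09). The calls at 12 and 24 h held in 17 of 17 alternatives, that at 6 h in 16 and that at 3 h in 8.

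Within the lines, genes passed in the Activator cells. Against their own uninduced state 0 of the 9 genes passed in the Control line at any stage, where the share of all genes was 0.214% at induction, then 0.55% and 0.403% at 3 and 6 h, then 1.05% and 0.788% at 12 and 24 h (2064 to 3233 genes had an unadjusted p under 0.05, and DESeq2 passed 1 of the 9 at 24 h). In the Activator line Asf1b alone passed at induction (-0.25 ± 0.10, adjusted p = 0.038; all genes, 28.0% lower and 32.9% higher). At 3 h 4 were lower (33.3% of all genes), Asf1a, Asf1b, Atrx and Morc3, and 2 were higher (39.8%), H3f3a at 0.27 ± 0.10 and H3f3b at 0.19 ± 0.08, which turned to -0.33 and -0.40 under the mitochondrial scaling and did not pass by library size without TMM (0.085 and 0.0032). At 6 h 5 were lower (34.0%) and 0 higher (40.5%). At 12 h 7 were lower (34.9%) and 0 higher (40.2%), and at 24 h 7 were lower (28.5%) and 0 higher (34.3%). Asf1b fell by 1.20 ± 0.11 on the log2 scale from uninduced to 12 h, Smchd1 by 0.78 ± 0.10, Morc3 by 0.78 ± 0.14, Atrx by 0.70 ± 0.09, Asf1a by 0.66 ± 0.11, H3f3a by 0.65 ± 0.10 and Hira by 0.26 ± 0.08.

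The change from uninduced was itself compared between the lines with an interaction term. At induction it was more negative in the Activator line for 1 gene (17.7% of all genes). The count was 2 at 3 h (25.7%), then 3 at 6 h (27.7%). It was 7 at 12 h (28.0%), and at 24 h it was 5 (18.7%). When one line difference was fitted over the whole time course, 8 of 9 genes were lower in the Activator line (37.5% of all genes), from -0.09 ± 0.04 for Daxx (adjusted p = 0.036) to -0.88 ± 0.09 for Asf1b, and H3f3b did not pass at 0.02 ± 0.04. That for Daxx turned to 0.039 under the DESeq2 size factors.

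From 12 to 24 h the genes took different paths in the Activator line. Asf1a rose by 0.49 ± 0.11 (adjusted p = 0.00098) and Morc3 by 0.41 ± 0.14 (adjusted p = 0.028), where 17.5% of all genes rose. Hira fell by 0.30 ± 0.08 (adjusted p = 0.0042) and H3f3b by 0.36 ± 0.08 (adjusted p = 0.00071), where 19.5% fell, but under the mitochondrial scaling Hira was at 0.0044 and H3f3b at -0.061 and neither passed. Morc3 held 85.7 CPM in Activator replicate 2 at 24 h beside 40.8 and 46.5, and without replicate 2 its change was 0.20 (adjusted p = 0.11), while that of Asf1a was 0.60. Against the same interval in the Control line, Asf1a was the only gene to pass (0.53 ± 0.15, adjusted p = 0.017; 8.7% of all genes passed as higher). Asf1b, Smchd1 and Atrx moved by 0.06 ± 0.10, -0.07 ± 0.10 and 0.01 ± 0.09, and did not pass.

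The wider network was read from 6 lists of related genes, which without the 9 hold 46 genes. Of these 46 genes 6 were higher and 15 lower at induction, where 31.7% and 25.5% of all genes were. At 12 h the counts were 13 and 23 and the median log2 fold change was -0.31 (all genes, 41.1% and 34.1%), and at 24 h they were 8 and 27 with -0.42 (34.5% and 29.4%). The counts of single lists below include the members they hold, and with 4 to 12 genes a list they can lie near these shares. In the HIRA complex list, which holds Hira and 3 partners, 3 of 4 were lower and 1 higher at both 12 and 24 h. In the list of PML body genes, which holds Atrx and Daxx, 3 of 5 were lower at 12 h. Of 11 genes of the CAF-1 complex and H3.1 or H3.2 supply, 5 were lower and 3 higher at 12 h and 8 lower at 24 h. Of 12 transcription-coupled histone chaperones 6 were lower and 3 higher at 12 h. In the MORC, SMCHD1 partner and HUSH list 4 of 9 were lower and 3 higher at 12 h, and of 8 other replication-independent histone variants 4 were lower and 3 higher.

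The genes with the largest fall and rise in these lists were named at each stage. Pml, which builds the PML bodies that hold DAXX and MORC3, had the largest fall from induction to 12 h. Its mean was 26.6 CPM in induced Activator against 74.1 in induced Control cells (-1.52 ± 0.26, adjusted p = 2.5e-05), and 16.1 against 75.1 at 12 h (-2.29 ± 0.27, adjusted p = 4.5e-08). At 24 h it was 38.7 against 70.0 (-0.93 ± 0.26, adjusted p = 0.0029). H2afz, a gene for the histone variant H2A.Z, had the largest fall at 24 h, with 122 against 285 CPM (-1.23 ± 0.13, adjusted p = 5.0e-09), after 157 against 305 at 12 h. Morc2b, a paralogue of Morc3 that is little known outside germ cells, had the largest rise at all 5 stages from induction on. It reached a mean of 6.10 CPM in Activator cells at 12 h against 0.00787 in Control cells, where no fold is given because the Control counts are too few.

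**Figure D4:**
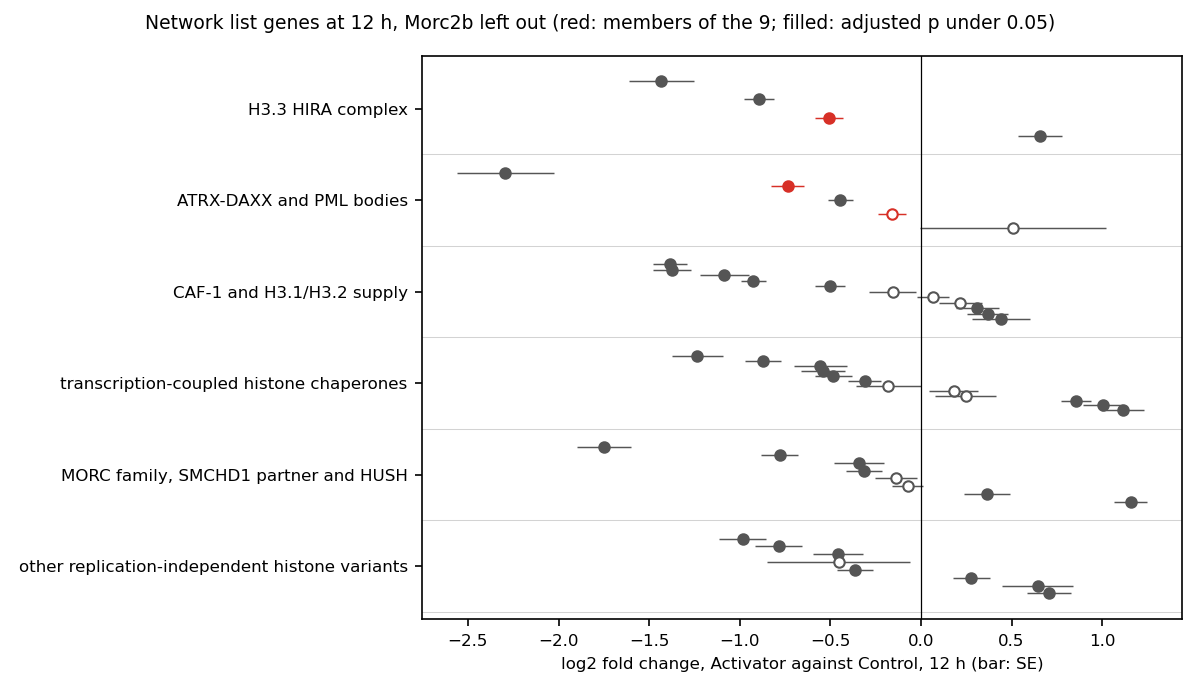
Log2 fold change of the Activator against the Control line at 12 h (horizontal axis, bar: SE) for the genes of the 6 network lists (rows), with filled points for an adjusted p under 0.05 and members of the 9 genes in red; Morc2b is left out because its Control level is 0.00787 CPM. Every list holds genes on both sides of 0, and Pml is the point furthest left.

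The genes whose mean levels over the 12 groups were most like a member were listed by Pearson correlation among 13579 genes, as a description, since the Control groups hardly vary and the 6 Activator stages shape every such value. Atrx was most like Knstrn (r = 0.994), Smchd1 most like Cbx3 (r = 0.995), the gene for heterochromatin protein HP1γ, and Asf1b most like Ckap2 and Bard1 (both r = 0.997). Hira and H3f3a were most like their own overlapping partners, Gm28539 (r = 0.997) and Gm17275 (r = 0.992), and next like Abcb10 (r = 0.989) and Nsmce4a (r = 0.980). Asf1a was most like Gm12316 (r = 0.994), H3f3b most like Wsb2 (r = 0.977), and Morc3 most like Camk2n2 (r = 0.966). Among the members themselves Atrx and Smchd1 were the closest pair (r = 0.972), followed by Atrx and Asf1b (r = 0.964), while H3f3a and H3f3b reached 0.62.

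Atrx and Smchd1 are also the longest genes of the set, with spans of 131789 and 130855 bases, and Daxx and H3f3b the shortest, with 6177 and 6051. Over 2094 protein-coding genes of 100 kb or more the median line difference was -0.09 at 12 h and -0.17 at 24 h, with quartiles of -0.82 and 1.85 at 12 h. Over 7746 protein-coding genes under 20 kb it was 0.18 and 0.04. Atrx at -0.74 and Smchd1 at -1.08 lay on either side of the lower quartile of the long genes at 12 h, and H3f3a and Asf1b, of 13112 and 14691 bases, fell as well. The part of gene length was not tested.

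Markers of other cell types were low but moved with the lines. The 10 fibroblast markers summed to 31148 to 34742 CPM in uninduced Control cells. At 12 h their summed level was 15150 to 18248 CPM in the Activator line against 22634 to 23876 in the Control line. Of 9 tested 7 were lower and 1 higher (all genes, 34.1% and 41.1%). The summed level of 5 endothelial markers was 36.9 to 43.6 against 0.613 to 0.816, with 5 of 5 higher (41.1% of all genes). That of 5 leukocyte markers was 18.9 to 20.3 against 8.27 to 9.46. For 5 epithelial markers it was 2.30 to 3.64 against 0.519 to 0.635, and for 5 pluripotency markers 1.73 to 3.67 against 0.330 to 0.571. Some sums already differed in uninduced cells. The epithelial sum was 1.40 to 1.86 in Activator against 0.546 to 0.766 in Control cells, and the endothelial sum 1.63 to 3.06 against 0.784 to 1.31. The leukocyte sum was lower in uninduced Activator cells, at 7.19 to 8.17 against 8.30 to 9.02. The fibroblast and pluripotency sums overlapped there. Many of the markers of other cell types lay near the floor. Over all Activator libraries 3 endothelial, 3 leukocyte, 4 epithelial and 5 pluripotency markers had a mean under 1 CPM. Fewer cells of a type and less RNA per cell cannot be told apart in bulk libraries, and the part of these shifts in the members' levels was not tested.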

How the data were processed

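Total RNA libraries (Illumina TruSeq stranded, ribosomal RNA depleted) were trimmed by the authors with cutadapt, aligned to GRCm38 with STAR and counted with TEtranscripts. The deposited table holds raw counts of 54842 genes and 1561 repeat families in 36 libraries, with replicates not pooled, and 1 row that names neither (0.00326% of counts) was left out. The strand and multi-mapping settings are not given in the sources used here.

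Library sizes were computed from genes and scaled by TMM. Genes were kept by filterByExpr (28536), and edgeR 4.0.16 (glmQLFit and glmQLFTest, robust) was fitted under R 4.3.3 to 12 groups with the replicate number as a block, since the study's methods also fit the replicate. SE is the log2 fold change over the square root of F. P-values were adjusted by Benjamini-Hochberg over all genes tested. They rest on a spread between biological replicates that was estimated over all 12 groups of 3, not within the compared groups alone. Each line was kept as a mixed culture, so the p-values hold no spread between independently made lines. Ratios within a library were compared by two-sided exact permutation tests, adjusted over 18 tests. The fit was tested on simulated data in which a small set of genes changed in a single group and no replicate effect was set. With so few genes changed, these data cannot test the scaling. Libraries of the MSR-dCas9-Repressor line were not analysed here.

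The 9 genes and the lists were chosen with earlier results of these data known. Named beyond the 9 were the network list genes with the largest rise and fall among those that passed at each stage, overlapping genes, and the genes most like each member among those with a mean normalised count above 100. The match for Daxx is not reported here. The 54495 gene identifiers that matched GENCODE M21 took their names, exons and positions from it. Alternatives were DESeq2 1.42.0, its size factors in edgeR, library size without TMM, scaling to mitochondrially encoded mRNAs, no block, no filter, only genes with a mean above 100, only the libraries of a stage, and leaving out each replicate or library.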

Additional observations from a re-analysis of the deposited data

Results flagged for a closer look

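For 18 results the change from the uninduced state differed between the lines by the interaction term of edgeR's quasi-likelihood test (adjusted p under 0.05), and 1 more differed in the change from 12 to 24 h. All values are log2 differences, Activator minus Control, with 3 libraries per group. Asf1a differed by -0.43 at induction and by -0.64 at 3 h. Its values were -0.77 at 6 h and -0.78 at 12 h, and it differed by 0.53 from 12 to 24 h. Asf1b differed by -0.51 at 3 h and -0.82 at 6 h, then by -1.28 (12 h) and -0.97 (24 h). Atrx differed by -0.33 at 6 h, and by -0.71 at both 12 and 24 h.

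At the later stages Smchd1 differed by -0.91 at 12 h and -0.86 at 24 h, H3f3a by -0.65 at 12 h and -0.81 at 24 h, and Hira by -0.33 at 12 h and -0.53 at 24 h. Morc3 differed by -0.65 at 12 h. Daxx (0.05 at 12 h, adjusted p = 0.79) and H3f3b (0.17 at 12 h, adjusted p = 0.18) did not pass at any stage. Single outlying libraries were not tested in groups of 3.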

How the results depend on the processing

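Over 17 alternatives each, the 54 line differences of the 9 genes gave 918 values, of which 800 stayed on the same side of the threshold without a called change of direction, 67 lost the call, 41 gained it and 10 reversed. In all 75 of the 918 changed sign, and apart from those 10 they did not pass before or after. Asf1a and Asf1b at induction, 3 h and 6 h, all 7 genes called at 12 h, and Atrx, Hira, Asf1b, H3f3a and Smchd1 at 24 h passed in each of these 17, which do not include the limit on the fold change given below. The cause of the changes below was not tested.

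Scaling to mitochondrially encoded mRNAs shifted the median of all genes by -0.35 at induction, by -0.60 and -0.71 at 3 and 6 h, and by -0.61 and -0.19 at 12 and 24 h. Under it Daxx (-0.59), H3f3a (-0.43) and H3f3b (-0.53) reversed at 3 h, H3f3a (-0.61) and H3f3b (-0.59) at 6 h, and H3f3b at 12 h (-0.53) and over the time course (-0.39). Daxx at 6 h reversed with DESeq2 (0.16) and among genes with a mean above 100 (0.16), and over the time course with DESeq2 (0.039) and its size factors (0.039). H3f3b at 24 h was 0.029 among genes with a mean above 100, and -0.26 to 0.039 when a replicate was left out.

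Counts of the 9 genes passing in the line comparison moved as follows. These counts, and those of the paragraphs below, take both directions together. At induction (2) the mitochondrial scaling gave 5 and a log2 limit of 0.5 gave 1. At 3 h (5) they gave 9 and 2. Fitting only the libraries of the stage gave 3, and leaving out replicates gave 3 to 5. DESeq2, a mean above 100 and leaving out replicate 2 passed Daxx, H3f3a and H3f3b as higher at 3 h. In these alternatives Atrx, Hira and Smchd1 lost the call (adjusted p = 0.224, 0.235 and 0.244 with DESeq2), which an equal count does not show. At 6 h (6) the single-stage fit and the log2 limit gave 2 each, and leaving out replicates 3 to 8. The count of 8, without Activator replicate 2 of that stage, held H3f3a (0.24) and H3f3b (0.21) as higher. Over the time course (8) leaving out replicates gave 5 to 7.

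For the change of the Activator line from uninduced, induction (1) gave 2 by library size, 9 by the mitochondrial scaling and 0 to 5 without a replicate. At 3 h (6) leaving out replicates gave 2 to 8, and at 6 h (5) it gave 2 to 6, with 9 by the mitochondrial scaling. From 12 to 24 h (4) that scaling gave 2 and leaving out replicates 0 to 4. The Control line at 24 h (0) gave 1 with DESeq2.

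For the difference between the lines, induction (1) gave 3 with DESeq2 and among genes with a mean above 100, 2 by the mitochondrial scaling, 0 with DESeq2 size factors and without the filter, and 0 to 3 without a replicate. At 3 h (2) DESeq2, its size factors and the higher mean gave 4 each, the mitochondrial scaling 7, and leaving out replicates 0 to 4. At 6 h (3) library size gave 6, the mitochondrial scaling 8, and leaving out replicates 2 to 5. From 12 to 24 h (1) DESeq2, library size, the mitochondrial scaling and the higher mean gave 2 each, and leaving out replicates 0 to 1.

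Within a stage, same-numbered libraries of both lines had deviations that correlated at -0.02 to 0.51, over 0.1 in 16 of 18 pairs. Among the libraries of the other line at that stage, 32 of 36 libraries correlated best with their own number. The numbers were therefore taken as shared only, and no correlation between stages was computed. Without the replicate block 6 genes passed at 24 h in place of 7, since H3f3b was lost, 0 in place of 1 at induction against uninduced in the Activator line, and 0 in place of 1 in the difference between the lines at induction.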
